A study of Homo sapiens with 5 samples.

Results

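The genes described here are the histone genes of the H1, H2A, H2B, H3 and H4 families that carry a current cluster symbol. They were taken by name: a gene entered if a probe set with 1 gene symbol named it and the symbol began with H1-, or with H2AC, H2BC, H3C or H4C and a number. Of 19775 genes with such a probe set, 50 entered, and where a gene had several such probe sets, the one brightest on average over the 5 arrays was used. They comprise 11 H1, 9 H2A, 14 H2B, 7 H3 and 9 H4 genes. By RefSeq's annotation 46 are protein-coding, 2 are pseudogenes, 1 is a transcribed pseudogene and 1 is a long noncoding RNA, H1-10-AS1. The label of clustered, replication-dependent genes covers most of them but not all. On chromosome 6, which holds the main cluster, lie 42 of the 50. The name rule also takes in H1-10, a linker histone made outside S phase, the germline genes H1-7 and H1-8, and H1-9P and H2BC12L, which lie away from the clusters.

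Histones package DNA. An octamer of H2A, H2B, H3 and H4 forms the nucleosome core, and the linker histones H1 bind where DNA enters and leaves it. Replication-dependent histone genes are transcribed mainly in S phase, when new chromatin needs histones, and their mRNAs normally end in a stem-loop in place of a poly(A) tail. Some of them also yield polyadenylated transcripts, above all in cells that have stopped dividing. Standard Affymetrix labelling, which the labels name, usually starts from the poly(A) tail. The arrays do not tell which 3′ end the signal came from, so a level here is not the total amount of a histone mRNA.

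The 5 arrays held RNA of PC-3, a human cell line grown from a bone metastasis of prostate cancer that does not depend on androgen. The spheroid array held cells grown as spheroids, the 2D array held cells in flat culture, and the labels name no hairpin for either. The arrays labelled shTRIB1-1 and shTRIB1-2 held cells with different hairpins against TRIB1, a pseudokinase that guides substrates to the ubiquitin ligase COP1, and the shGFP array held cells with a hairpin against GFP. The genotype is labelled TRIB1 depletion for both shTRIB1 arrays and control for shGFP. The labels state no treatment and the same growth in dishes for every sample, the spheroids included, and neither the promoter of the hairpins nor whether a line was 1 clone. Each condition had 1 array, apart from shTRIB1, which had 2. No label tells if any of them shared a culture.

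A level is the log2 of the deposited RMA intensity, and comparisons were limited to genes at 6 or more on any array compared. The median intensity was 33.0 to 33.4 on every array. TRIB1 itself was at 11.91 on the array labelled shTRIB1-1 and at 11.76 on that labelled shTRIB1-2, against 11.97 on the shGFP array, and at 11.23 on the spheroid array, against 11.04 on the 2D array. Depletion is not visible in these levels, and the hairpin arrays are named by their labels. The epithelial genes KRT8, KRT18, EPCAM and CDH1 were all at or above 9.39 on every array, and KLK3, the prostate gene for PSA, was listed at the same level of 6.90 on all 5. Of 6 markers of blood, endothelium and stroma, PTPRC, COL1A2, DCN and LUM stayed below 6 on every array, HBB lay between 6.15 and 6.25, and PECAM1 was at 9.53 on the spheroid array, against 7.57 on the 2D array. Their summed intensity was 908.2 on the spheroid array, against 352.1 on the 2D array. It was 216.1 on the array labelled shTRIB1-1 and 247.6 on that labelled shTRIB1-2, against 259.0 on the shGFP array, and the part of such cells in the results was not tested. For actin, signal at the 5′ end relative to the 3′ end was 0.131 on the spheroid array and 0.184 on the 2D array, and 0.436 to 0.445 on the 3 hairpin arrays.

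Promoter sequences show features that several of these genes share. They come from RefSeq (GRCh38.p14), on the gene's own strand, from 250 bases before to 50 bases after the annotated start. Position -1 is the last base before the start, and a motif is placed by its leftmost base. Of the 50 genes 43 had an entry, some with 2 starts, giving 47 promoters. Printed are those of the 2 genes with the highest and the 2 with the lowest spheroid difference, of H2BC4, with the largest mean difference between the hairpins and shGFP, and of H1-2, which was added after its values were seen. Capitals mark matches, on either strand, to the octamer ATTTGCAT, the CCAAT box CCAAT, the TATA box TATAAA and the H1 box AAACACA. None of the matches shown overlaps another, and a match describes the sequence alone.
H2BC21: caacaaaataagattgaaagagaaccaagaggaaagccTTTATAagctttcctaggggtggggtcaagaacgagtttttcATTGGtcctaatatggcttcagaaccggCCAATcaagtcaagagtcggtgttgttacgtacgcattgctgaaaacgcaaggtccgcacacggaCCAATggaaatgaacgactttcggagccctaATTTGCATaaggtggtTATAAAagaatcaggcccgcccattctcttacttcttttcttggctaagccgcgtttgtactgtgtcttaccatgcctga
H2AC15: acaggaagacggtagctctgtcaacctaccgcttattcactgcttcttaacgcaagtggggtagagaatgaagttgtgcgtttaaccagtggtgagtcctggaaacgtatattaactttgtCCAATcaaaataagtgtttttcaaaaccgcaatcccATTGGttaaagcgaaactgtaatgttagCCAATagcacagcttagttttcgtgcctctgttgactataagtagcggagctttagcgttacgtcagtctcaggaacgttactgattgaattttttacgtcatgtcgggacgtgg
H1-2: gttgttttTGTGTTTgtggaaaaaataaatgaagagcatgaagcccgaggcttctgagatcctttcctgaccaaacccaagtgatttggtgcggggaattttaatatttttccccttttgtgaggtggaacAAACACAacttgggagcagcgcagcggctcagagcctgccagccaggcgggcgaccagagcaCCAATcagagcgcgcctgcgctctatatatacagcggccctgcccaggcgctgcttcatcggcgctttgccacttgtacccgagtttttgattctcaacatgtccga
H1-3: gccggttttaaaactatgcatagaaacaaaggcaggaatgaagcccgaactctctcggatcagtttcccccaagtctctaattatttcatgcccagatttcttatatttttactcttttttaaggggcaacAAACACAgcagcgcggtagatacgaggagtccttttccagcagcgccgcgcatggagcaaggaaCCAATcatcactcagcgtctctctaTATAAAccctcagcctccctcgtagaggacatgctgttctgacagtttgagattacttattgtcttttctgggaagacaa
H1-4: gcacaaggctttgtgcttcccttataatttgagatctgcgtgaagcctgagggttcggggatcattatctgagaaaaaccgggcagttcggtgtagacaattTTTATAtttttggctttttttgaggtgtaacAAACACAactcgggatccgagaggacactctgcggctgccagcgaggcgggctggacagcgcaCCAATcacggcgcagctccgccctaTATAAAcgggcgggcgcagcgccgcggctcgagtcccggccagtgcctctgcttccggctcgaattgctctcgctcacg
H2BC4: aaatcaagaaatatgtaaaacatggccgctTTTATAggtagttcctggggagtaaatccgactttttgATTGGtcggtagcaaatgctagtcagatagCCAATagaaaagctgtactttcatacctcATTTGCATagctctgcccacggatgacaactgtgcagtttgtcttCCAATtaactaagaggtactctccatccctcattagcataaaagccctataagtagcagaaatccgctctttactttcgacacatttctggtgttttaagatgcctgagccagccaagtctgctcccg

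The H2BC21 promoter (chr1:149886633-149886932, minus strand) holds the octamer at -46 and a TATA box at -30. That of H2BC4 (chr6:26123877-26124176, minus strand) holds the octamer at -123. The octamer, the site of OCT-1 in H2B promoters, occurs in 11 of 15 H2B promoters and 6 of 8 H2A promoters of the set, in no H1, H3 or H4 promoter of it, and in 1.77% of all 35116 RefSeq promoters. These counts are not of separate sites. H2BC12 counts with 2 starts. H2BC4 and H2AC6 start 246 bases apart in opposite directions, so their windows overlap and 1 site can count for both, as in other such pairs. No exact octamer was found in the window of H2AC15 (chr6:27838326-27838625, minus strand), which holds a CCAAT box at -129, at -93 and at -65. The H1 box occurs in 7 of 10 H1 promoters, in none of the other classes of the set, and in 5.64% of all promoters.

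The 3 linker histone promoters have the same order of motifs near the start. H1-2 (chr6:26056421-26056720, minus strand) has the H1 box at -119 and the CCAAT box at -57. H1-3 (chr6:26234938-26235237, minus strand) has them at -119 and -55, and H1-4 (chr6:26156079-26156378, plus strand) at -117 and -54. H1-3 and H1-4 carry a TATA box in addition, at -30 and -29, while the exact letters TATAAA are not in the H1-2 window. That window holds the letters TATATATA after its CCAAT box, which the search did not count. Over the whole set the CCAAT box was present in 40 of 47 promoters (85.1%), against 34.6% of all promoters, and the TATA box in 30 of 47 (63.8%), against 11.5% of all promoters.

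Only part of the set passed the level filter. On at least 1 array 22 of the 50 genes reached a level of 6, namely 4 H1, 6 H2A, 7 H2B, 2 H3 and 3 H4 genes. The other 28 lay between 2.75 and 5.94 on every array, among them the germline genes H1-6, H1-7, H1-8 and H2BC1 and the replication-dependent linker histones H1-1 and H1-5. None of these 28 differed between spheroid and 2D by more than 0.49. A level of 6 is a filter and does not show that a gene is expressed. H2AC15, H2AC17, H3C8 and H4C5 passed it but never exceeded 6.52, which is below the constant 6.90 of KLK3. Family members are close copies of each other, and 10 of the 22 genes were read by probe sets of the _s_at or _x_at type, which can bind several transcripts. Levels of those genes (H1-10, H2AC14, H2AC6, H2BC12L, H2BC21, H2BC5, H2BC6, H2BC9, H3C8 and H4C11) may thus include related genes.

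**Figure D1:**
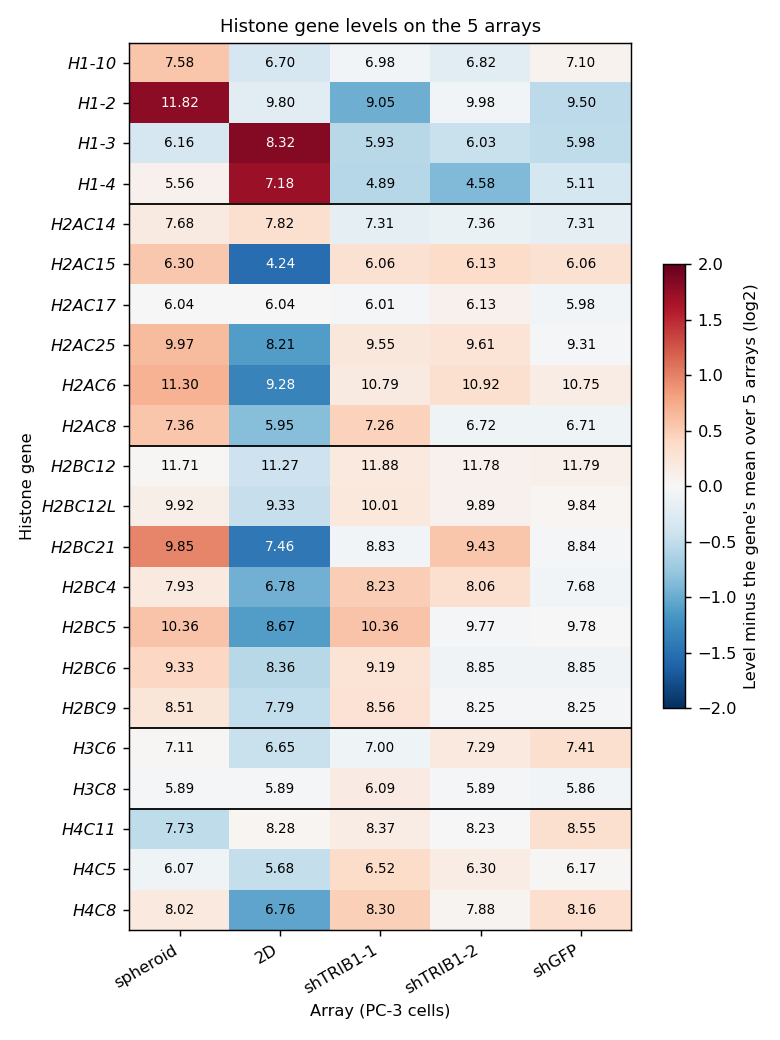
Level (log2 of RMA intensity, printed in each cell) of the 22 histone genes that reached 6 on any array, by class, with 1 column per array. Colour is the level minus the gene's own mean over the 5 arrays, and the 2D column is lowest in 15 genes and highest in H1-3, H1-4 and H2AC14.

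The spheroid and 2D arrays address how growth in 3D changes expression. Of the core histone genes, 4 of 6 H2A, 7 of 7 H2B, 1 of 1 H3 and 2 of 3 H4 genes were higher on the spheroid array at any size, by up to 5.26-fold for H2BC21, while the linker histones split, with H1-2 4.07-fold higher and H1-3 and H1-4 4.48-fold and 3.09-fold lower. At any size 16 of the 21 genes at a level of 6 on either array were higher, against 47.3% of all genes, and 4 (H1-3, H1-4, H2AC14 and H4C11) were lower, against 50.9%. Of the 21 genes, 9 (42.9%) exceeded the 2D array by 2-fold or more, against 5.05% of all 10570 genes. At least 2-fold lower were 2 of the 21, against 5.23% of all genes. With no filter on level, 9 of 50 (18.0%) were higher, against 3.14% of all 19775 genes, and 2 of 50 were lower, against 2.96%. H2AC8, H2AC15 and H4C5 passed the filter through the spheroid array alone, and H1-4 through the 2D array alone. Their direction thus followed in part from the filter. Genes read by _s_at and _x_at probe sets may share transcripts, so these counts are not of separate signals. With 1 array per condition there is no test and no replicate error for any of these differences. In RNA of whole cultures, fewer cells of a type and less RNA per cell cannot be told apart.

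The choice of control array decides much of this count. With the shGFP array as control in place of 2D, only H1-2 and H2BC21 stood 2-fold or more above their control, 2 of 20 genes against 4.77% of all genes, and none was 2-fold lower, against 4.59% of all genes. The actin ratio was 0.131 on the spheroid array, against 0.436 on the shGFP array, and that of GAPDH 0.763, against 0.944, and their part was not tested. The 2D array was the lowest of the 5 in 15 of the 22 genes (68.2%), against 21.0% of all 10843 genes at that level, and the highest in 3 (13.6%), against 24.3%. The spheroid array was the highest of the 5 in 8 of the 22, against 24.9% of all genes, and the lowest in 1, H4C11, against 28.1%. The 2D array was the lowest in all 7 H2B genes and in 4 of the 6 H2A genes, several of them read by probe sets that may bind the same transcripts.

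H2BC21, a core H2B gene of the cluster on chromosome 1, was at 9.85 on the spheroid array, against 7.46 on the 2D array. It was at 8.83 on the array labelled shTRIB1-1 and at 9.43 on that labelled shTRIB1-2, against 8.84 on the shGFP array. The spheroid array was the highest of the 5 and the 2D array the lowest, and the differences were 2.39 over 2D and 1.01 over shGFP. H2AC6, a core H2A gene, was at 11.30 on the spheroid array, against 9.28 on the 2D array, with 10.79 on the array labelled shTRIB1-1 and 10.92 on that labelled shTRIB1-2, against 10.75 on the shGFP array. Here the 2D array stood apart from all 4 others, and the difference of 2.03 over 2D was 0.55 over shGFP. H2AC25, an H2A gene of another small cluster on chromosome 1, showed the same order, at 9.97 on the spheroid array, against 8.21 on the 2D array, and at 9.55 on the array labelled shTRIB1-1 and at 9.61 on that labelled shTRIB1-2, against 9.31 on the shGFP array. Its difference of 1.76 over 2D was 1.00 as the median over its probe sets, and its other probe set, below 6 throughout, differed by 0.24.

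H2AC15 and H2AC8 passed the filter through the spheroid array alone, so their differences rest on a 2D level below 6. H2AC15 was at 6.30 on the spheroid array, against 4.24 on the 2D array, and at 6.06 on the array labelled shTRIB1-1 and at 6.13 on that labelled shTRIB1-2, against 6.06 on the shGFP array. It was thus near 6 everywhere but on the 2D array, and its other probe set stayed at about 3. H2AC8 was at 7.36 on the spheroid array, against 5.95 on the 2D array, and at 7.26 on the array labelled shTRIB1-1 and at 6.72 on that labelled shTRIB1-2, against 6.71 on the shGFP array. Of the remaining H2A genes, H2AC17 was at 6.04 on both the spheroid and the 2D array, and H2AC14 was at 7.68 on the spheroid array, against 7.82 on the 2D array.

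All 7 H2B genes at a level of 6 were higher on the spheroid array than on the 2D array, with a median of 0.98, and 3 of them at least 2-fold. H2BC5, H2BC6, H2BC9 and H2BC12L were read by _x_at probe sets and H2BC21 by an _s_at one. These may bind the same transcripts, so the 7 genes are not 7 separate signals. H2BC5 was at 10.36 on the spheroid array, against 8.67 on the 2D array, and at 10.36 on the array labelled shTRIB1-1 and at 9.77 on that labelled shTRIB1-2, against 9.78 on the shGFP array. Its other probe set differed by 1.28. H2BC4 was at 7.93 on the spheroid array, against 6.78 on the 2D array, and at 8.23 on the array labelled shTRIB1-1 and at 8.06 on that labelled shTRIB1-2, against 7.68 on the shGFP array. For both genes the 2D array was the lowest, and in H2BC4 both shTRIB1 arrays lay above the spheroid array. Smaller differences were seen for H2BC6 (0.98), H2BC9 (0.73), H2BC12L (0.59) and H2BC12 (0.44). From shGFP H2BC12 differed by -0.08. H2BC4 and H2AC6 are neighbours that start 246 bases apart in opposite directions, and both were higher on the spheroid array. In the pair H2AC15 and H2BC15, whose starts lie 194 bases apart, the H2B partner did not reach a level of 6 on any array. The pairs H2AC14 and H2BC14, H2AC17 and H2BC17, and H3C7 and H2BC9 also had 1 partner that stayed below 6. Their other partners, H2AC14, H2AC17 and H2BC9, differed from 2D by -0.13, 0 and 0.73.

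**Figure D2:**
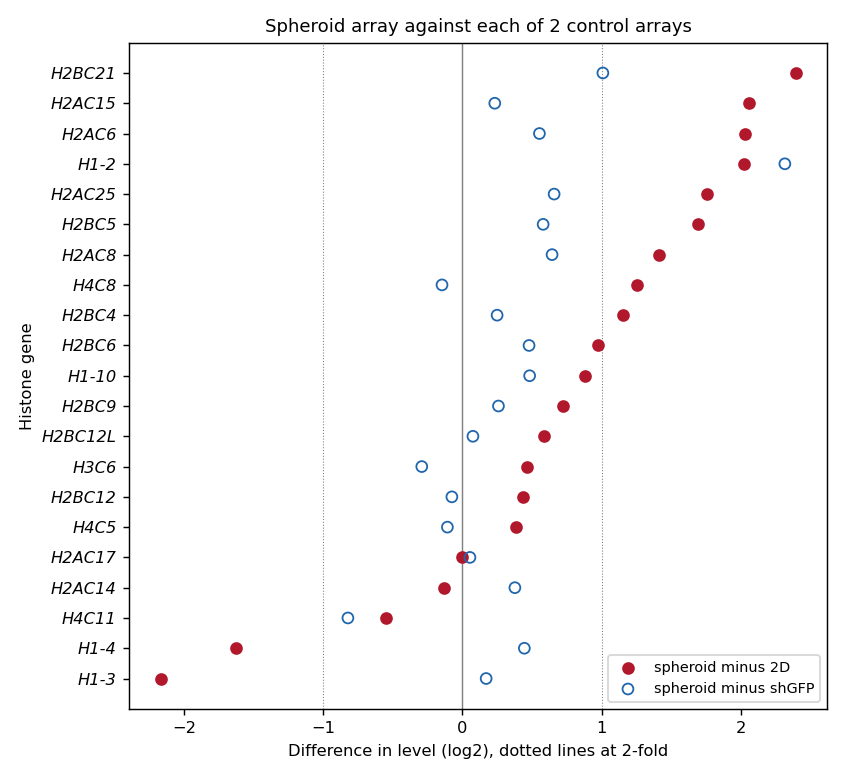
Difference in level (log2) of the spheroid array from the 2D array (filled circles) and from the shGFP array (open circles) for the 21 histone genes that reached a level of 6 in the spheroid or 2D array, 1 point per gene and control. Against 2D 9 genes lie beyond 1 and 2 below -1, whereas against shGFP only H1-2 (2.32) and H2BC21 (1.01) lie beyond 1.

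Linker histones differed among themselves in direction. H1-2 was at 11.82 on the spheroid array, against 9.80 on the 2D array, and at 9.05 on the array labelled shTRIB1-1 and at 9.98 on that labelled shTRIB1-2, against 9.50 on the shGFP array. The spheroid array stood above all 4 others, by 2.02 over 2D and 2.32 over shGFP. H1-3 was at 6.16 on the spheroid array, against 8.32 on the 2D array, and at 5.93 on the array labelled shTRIB1-1 and at 6.03 on that labelled shTRIB1-2, against 5.98 on the shGFP array. H1-4 was at 5.56 on the spheroid array, against 7.18 on the 2D array, and at 4.89 on the array labelled shTRIB1-1 and at 4.58 on that labelled shTRIB1-2, against 5.11 on the shGFP array. Both were high on the 2D array alone. Their differences from 2D were -2.16 and -1.63, and from shGFP the sign turned, to 0.17 and 0.45. On the 4 arrays other than 2D, H1-4 stayed below 6 and H1-3 lay between 5.93 and 6.16. H1-10, which is not tied to replication, was at 7.58 on the spheroid array, against 6.70 on the 2D array, a difference of 0.88.

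**Figure D3:**
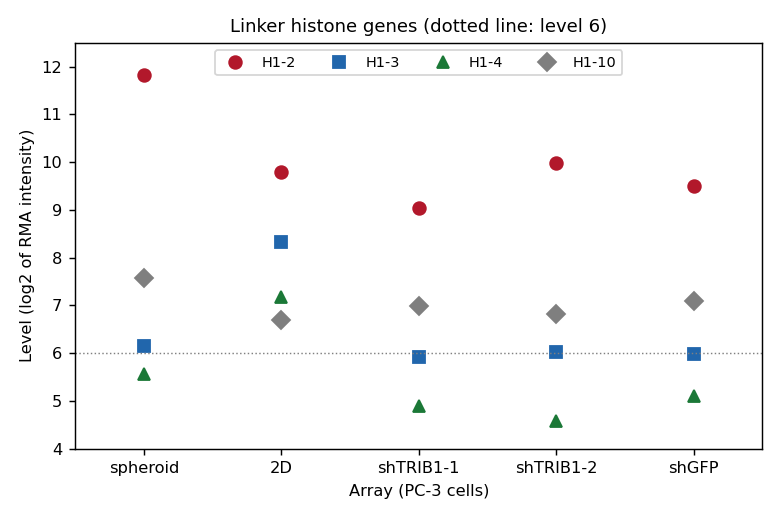
Level (log2 of RMA intensity) of the 4 linker histone genes above the filter on each array, 1 point per gene and array, with a dotted line at 6. H1-2 is highest on the spheroid array (11.82), whereas H1-3 (8.32) and H1-4 (7.18) are highest on the 2D array. Heights of different genes come from different probes and cannot be compared.

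Of 7 H3 and 9 H4 genes, 2 and 3 reached the level minimum. H4C8 was at 8.02 on the spheroid array, against 6.76 on the 2D array, and at 8.30 on the array labelled shTRIB1-1 and at 7.88 on that labelled shTRIB1-2, against 8.16 on the shGFP array. Its difference of 1.25 over 2D was -0.15 over shGFP, so the 2D array alone stood apart. H4C11 was at 7.73 on the spheroid array, against 8.28 on the 2D array, and at 8.37 on the array labelled shTRIB1-1 and at 8.23 on that labelled shTRIB1-2, against 8.55 on the shGFP array. It was lower on the spheroid array than on each of the others, by 0.55 from 2D and by 0.82 from shGFP. H4C5 differed by 0.39 and H3C6 by 0.47 from 2D, and by -0.11 and -0.29 from shGFP. H4C5 was at 6.07 on the spheroid array, against 5.68 on the 2D array, and passed the filter of that comparison through the spheroid array alone. The other probe set of H3C6, below 6 throughout, was at 5.82 on the spheroid array, against 5.55 on the 2D array and 5.75 on the shGFP array.

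Probe sets shared by several histone genes, which the name rule leaves out, add to this. Of 20 such probe sets 15 reached a level of 6. One annotated to 14 H4 genes was at 11.41 on the spheroid array, against 12.83 on the 2D array, and at 12.23 on the array labelled shTRIB1-1 and at 12.02 on that labelled shTRIB1-2, against 12.65 on the shGFP array. It was 2.67-fold lower on the spheroid array than on the 2D array and lower by 1.24 than on the shGFP array. A second H4 probe set with 14 symbols differed by -0.61 from 2D, and another by 0.68 near the level minimum, so the shared H4 probe sets did not go one way. The H2B probe sets with several symbols were all higher on the spheroid array than on the 2D array, by 0.64 to 2.06, and than on the shGFP array, by 0.06 to 1.19. Of the H2A probe sets above the minimum, a pair annotated to 2 genes was higher by 1.09 and 1.21, and those annotated to 6 genes differed by 0.51 and -0.20. Over shGFP the pair was higher by 0.60 and 0.80, and those annotated to 6 genes differed by -0.19 and -0.01. The H3 probe set above the minimum, annotated to 10 genes, was at 6.79 on the spheroid array, against 5.15 on the 2D array. Its difference of 1.64 over 2D was 0.47 over shGFP. Probe sets with both H2A and H3 symbols differed by 1.00 and 0.45 from 2D, and by -0.27 and 0.26 from shGFP.

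Genes that act around histones were described in 4 lists, namely histone mRNA factors, histone chaperones and importers, replacement variants outside the name rule, and S phase genes. Of 15 S phase genes 10 were at least 2-fold lower on the spheroid array and 0 higher, against 5.23% and 5.05% of all genes. Their median was -1.55, while it was -0.01 over all genes, 0.88 over the 21 histone genes and 0.0094 over all 50 histone genes without the filter. The cyclin CCNA2 was at 7.04 on the spheroid array, against 9.61 on the 2D array. E2F8, a repressor of the E2F family, was at 6.75 on the spheroid array, against 9.27 on the 2D array, and the thymidylate synthase TYMS at 9.86, against 12.18. The 3 highest of the list were E2F1 at 0.02, E2F3 at -0.41 and E2F2 at -0.49. With shGFP as control the S phase median was -0.52 and that of the histone genes 0.25. The part of this difference in the histone values was not tested.

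Of 25 histone chaperones and importers 6 were at least 2-fold lower and 0 higher, against 5.23% and 5.05% of all genes, with a median of -0.72. HJURP, which loads CENP-A, differed by -2.82, ASF1B by -1.74 and the H3 and H4 chaperone NASP by -1.72. The 3 highest were UBN1, of the HIRA complex, at 0.65, UBN2 at 0.25 and NAP1L1 at -0.00041. Among 6 replacement variants the centromeric CENPA differed by -2.61, the damage-marked H2AX by -1.86 and H2AZ1 by -0.57. The 3 highest were H2AJ at 0.46, MACROH2A1 at -0.16 and H2AZ2 at -0.42. Of 23 histone mRNA factors none differed 2-fold, and the median was -0.21. SLBP, which binds the stem-loop, was at 10.69 on the spheroid array, against 11.01 on the 2D array, and NPAT, which activates histone transcription, was at 7.93, against 8.18. NCBP1 (-0.80), SRRT (-0.63) and CPSF2 (-0.55) were lowest in the list, and ZNF473 (0.41), FIP1L1 (0.39) and SYMPK (0.22) highest. With shGFP as control the medians were -0.40 for chaperones, -0.0011 for replacement variants and 0.023 for histone mRNA factors.

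**Figure D4:**
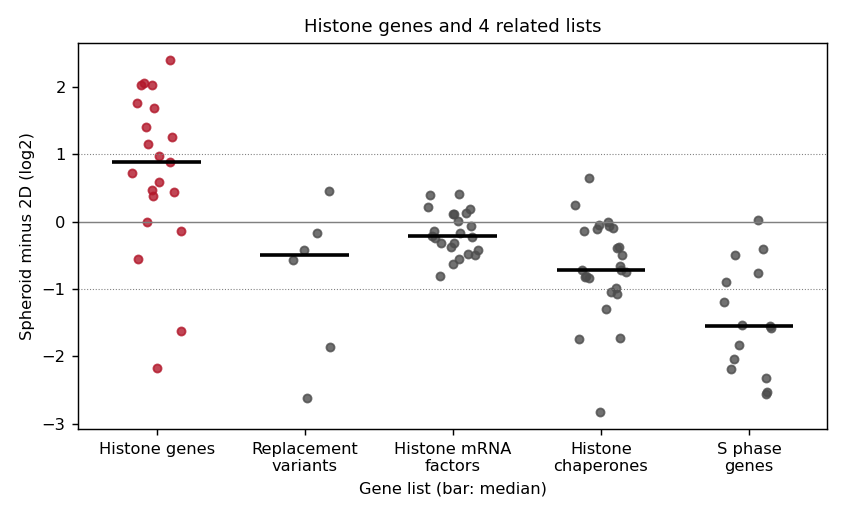
Difference in level (log2) between the spheroid and 2D arrays for the histone genes (red, 21 genes) and for 4 lists of related genes (grey), 1 point per gene that reached a level of 6, with a bar at the median. The medians are 0.88 for histone genes, -0.49 for replacement variants, -0.21 for mRNA factors, -0.72 for chaperones and -1.55 for S phase genes.

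Between the shGFP and 2D arrays, 6 of 21 histone genes were at least 2-fold higher with shGFP (H2AC15, H2AC25, H2AC6, H2BC21, H2BC5 and H4C8), against 2.13% of all genes. At least 2-fold lower were 2, H1-3 and H1-4, against 2.11% of all genes. Both shTRIB1 arrays were at least 2-fold above 2D in 7 of 22 histone genes, against 2.22% of all genes, and 2-fold below it in 2, H1-3 and H1-4, against 2.24%. These comparisons share the 2D array with that of the spheroids, and they also cross the gap in the actin ratio (0.445, 0.442 and 0.436 on the shTRIB1-1, shTRIB1-2 and shGFP arrays, against 0.184 on the 2D array), whose part was not tested.

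The design set both shTRIB1 arrays against shGFP. TRIB1 mRNA was at similar levels on the 3 arrays, and arrays do not measure its protein, so the values compare these arrays by their labels. H2BC4 had the mean furthest from 0 of the 21 genes, at 0.46. Next came H2BC5, H2BC21, H2AC8 and H2AC25 with means of 0.27 to 0.29, of which only that of H2AC25 had a difference above 0.2 on both arrays. No histone gene was 2-fold higher on both arrays, against 0.361% of all 10522 genes, and none was 2-fold lower on both, against 0.0855%. At any size, 9 of 21 (42.9%) were higher on both arrays, against 25.0% of all genes, and 3 were lower on both, against 34.7%. The median difference of the 21 genes was 0.09 with shTRIB1-1 and 0.05 with shTRIB1-2, against -0.03 and -0.01 over all genes. With Benjamini-Hochberg adjustment over all genes, limma (with its intensity trend) called 0 of the 21 and 0% of all genes. At an unadjusted p under 0.05 it held 0 of the 21, against 3.38% of all genes. That fit has 1 residual degree of freedom, which comes from the difference between the 2 hairpins.

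H2BC4 had the largest mean difference, 0.46 ± 0.12 (SD, n = 2), with 0.54 and 0.38 for the arrays labelled shTRIB1-1 and shTRIB1-2 (limma adjusted p = 0.951). The neighbour H2AC6 differed by 0.04 and 0.17. H2AC25 differed by 0.24 and 0.30, and H4C5 by 0.35 and 0.13. Lower on both arrays were H3C6, by -0.41 and -0.11, H4C11, by -0.18 and -0.32, and H1-10, by -0.12 and -0.29. The other probe set of H3C6, below 6 throughout, went the other way, by 0.19 and 0.06. Each SD is that between the hairpins and holds nothing of the spread of the lone shGFP array.

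The 2 hairpins differed from each other in several genes. H1-2 differed by -0.46 with shTRIB1-1 and by 0.48 with shTRIB1-2. H2BC21 differed by -0.02 and 0.59, whereas H2BC5 differed by 0.59 and -0.01 and H2AC8 by 0.54 and 0.00. H2BC6 and H2BC9 followed H2BC5, with 0.34 and 0.31 on the array labelled shTRIB1-1 and -0.01 and 0.00 on that labelled shTRIB1-2, but all 3 are read by _x_at probe sets that may bind the same transcripts. Among shared probe sets, one annotated to 2 H2B genes differed by 0.98 and 0.66, and the pair annotated to 2 H2A genes by 0.51 and 0.53 and by 0.54 and 0.51. Among the H4 probe sets of 14 symbols above the minimum, the brightest differed by -0.42 and -0.63 and the second by -0.21 and -0.23. The one near the level minimum differed by 0.09 and -0.06.

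**Figure D5:**
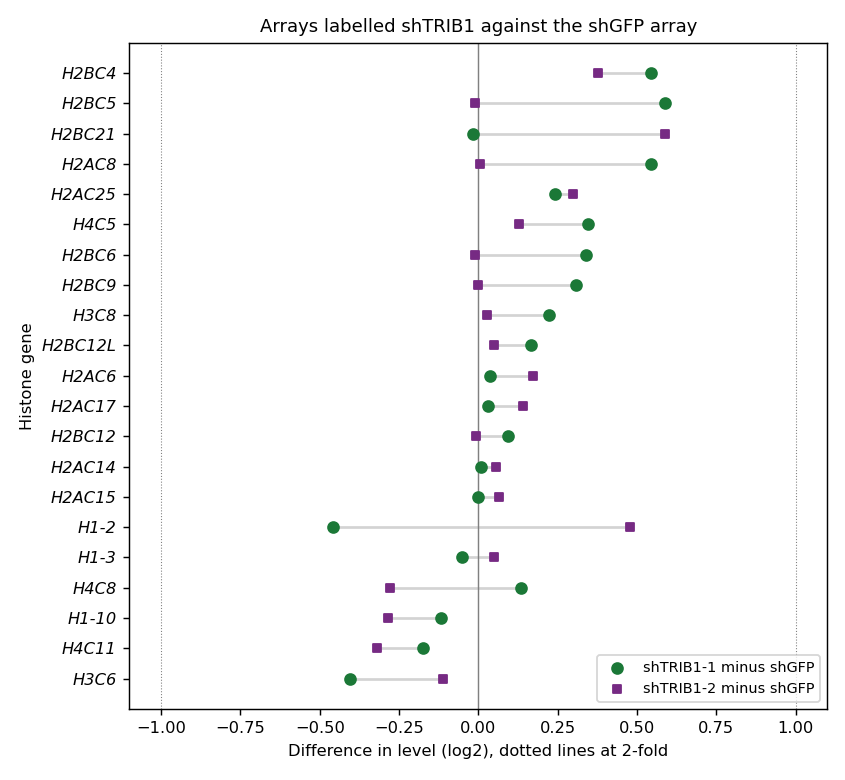
Difference in level (log2) of the arrays labelled shTRIB1-1 (circles) and shTRIB1-2 (squares) from the shGFP array for 21 histone genes, joined by a line per gene and ordered by the mean. No point lies beyond 1 in either direction, and the longest line is that of H1-2 (-0.46 and 0.48).

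No gene of the 4 lists was 2-fold different on both arrays in either direction. Lower on both arrays at any size were 34.7% of all genes and higher on both 25.0%. Of 24 chaperones 14 were lower on both arrays and 0 higher, with medians of -0.14 and -0.18. CHAF1A, of the assembly factor CAF-1, differed by -0.28 and -0.71, HJURP by -0.33 and -0.76 and SSRP1, of FACT, by -0.32 and -0.41. Of 14 S phase genes 9 were lower on both and 4 higher, with E2F7 at -0.60 and -1.19 and CCNE1 at 0.40 and 0.45. Of 6 replacement variants 3 were lower on both and 2 higher. Of 22 histone mRNA factors 12 were lower on both and 6 higher, with medians of -0.04 and -0.12. CSTF2 differed by -0.95 and -0.28, CPSF2 by -0.63 and -0.38 and NCBP1 by -0.54 and -0.32. SLBP differed by 0.41 and 0.10 and CTIF by 0.08 and 0.36. LSM11, a subunit of the U7 particle that cuts histone pre-mRNAs, was at 7.81 on the array labelled shTRIB1-1 and at 7.36 on that labelled shTRIB1-2, against 6.56 on the shGFP array, a difference of 1.24 and 0.79. LSM11 was at 7.82 on the spheroid array and 8.02 on the 2D array, so the shGFP array was the lowest of the 5.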

How the data were processed

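Expression was measured on 5 Affymetrix arrays of PC-3 cells. Per the submitters' processing notes the authors used RMA, a method that quantile-normalizes arrays and so hides a change shared by most genes. Their deposited intensity values, 1 per probe set, follow a linear scale as judged by their range. Version and chip definition are not stated in those notes.

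Log2 was taken without a pseudocount. Gene names came from the platform annotation, and 41097 of 54675 probe sets carried 1 symbol. Arrays have no sequencing depth, and their number limits the precision. The spheroid and 2D arrays were set against each other without a test. The 2 shTRIB1 arrays were set against shGFP with limma 3.58.1 in R 4.3.3 (intensity trend, Benjamini-Hochberg over 10522 genes, threshold 0.05). Its p-values measure the spread between these arrays alone. It was also run on simulated data, with 1 common spread for all genes and shifts larger than any histone difference here. That run does not show what limma could find at the size of these differences. Named genes were histone genes above the level minimum, first those past 2-fold or the 6 highest and 6 lowest differences. On the spheroid array the 3 highest and lowest differences of each list were named, and for the hairpins only some of the list genes. NPAT was added after its values were seen. The members and lists were chosen with earlier results of these data known. Alternatives changed the level filter, the probe set rule, the pseudocount, the fold and the control array.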

Additional observations from a re-analysis of the deposited data

How the results depend on the processing

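No paired analysis was possible because the shGFP, 2D and spheroid conditions have 1 array each. With shGFP alone as control, an alternative added after seeing the data, 2 histone genes were 2-fold higher on the spheroid array and 0 lower. The median was then 0.25. The sign turned for H1-3 (0.17), H2AC14 (0.38), H2BC12 (-0.08), H3C6 (-0.29), H4C5 (-0.11) and H4C8 (-0.15). H1-4 turned too (0.45), but it was below 6 on both of these arrays. With the mean of 2D and shGFP, 7 were higher (4.34% of all genes) and 0 lower (4.32%), the spheroid median was 0.55, 0 genes were 2-fold higher on both hairpin arrays (0.769% of all genes) and 2 lower (0.300%), and the hairpin median was 0.38. With 2D alone as control, also added later, 7 of 22 histone genes were 2-fold higher (2.22% of all genes) and 2 lower (2.24%) on both hairpin arrays, with a median of 0.62. The main medians were 0.88 for the spheroid array and 0.11 for the hairpins.

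The spheroid median of the histone genes was 1.11 at a level of 8 (where 1 gene was 2-fold lower), 0.0094 with no level filter, 0.80 as the median over probe sets, 0.81 without _s_at and _x_at probe sets, 0.79 with log2(value + 16) and 0.85 without the H1 genes outside the clusters. Without _s_at and _x_at probe sets, 6 histone genes were 2-fold higher on the spheroid array than on the 2D array and 2 lower. The hairpin median was 0.032 with no filter and 0.042 without _s_at and _x_at probe sets, and 0.049 to 0.113 with 1 hairpin left out. Limma called 0 histone genes in every alternative run, with a smallest adjusted p over all genes of 0.557 to 0.991.

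Over the 4 related lists together the spheroid median was -0.49, and -0.55 at a level of 8, -0.43 with log2(value + 16), -0.42 with no filter, -0.30 against the mean of 2D and shGFP and -0.20 against shGFP. The hairpin median of those lists was -0.13, and -0.26 against the mean of 2D and shGFP and -0.45 against 2D. Reversed medians were 0.023 for histone mRNA factors on the spheroid array against shGFP, and 0.068 and 0.18 for replacement variants with the hairpins, as the median over probe sets and without _s_at and _x_at probe sets. The cause was not tested.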
